A study of Homo sapiens with 30 samples.

Results

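The histone genes were followed across all 30 RNA-seq libraries of the study. Members were chosen by name: every protein-coding gene whose symbol belongs to the H1, H2A, H2B, H3 or H4 families, the variants H2AZ, H2AX, H2AJ, MACROH2A and H3-3 included. The current GENCODE annotation lists 97 such genes, and 80 of them were among the 39359 genes of the count table. Of these 80, 61 are replication-dependent genes of the histone clusters, 10 are replacement genes, and 9 are testis-type or other histone genes. The filter on low counts, which asks for enough reads in a whole group of libraries, kept 64 of the 80, among 21335 genes kept in all: 52 replication-dependent, 10 replacement and 2 other genes (H1-6 and H3-5). The 16 untested members had at most 8 reads in any library. They were H2AC7, H2AC17, H3C11, H3C14, H3C15, H4C6, H4C7, H4C13 and H4C15 of the replication-dependent genes, and H1-8, H2AB1, H2AC1, H2BC1, H2BC12L, H2BW2 and H3-4 of the others.

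The libraries came from H1299, a human lung carcinoma line that lacks p53, which is 1 line grown in culture. Cells were transiently transfected with a vector that carried GFP alone (pGFP), or GFP together with wild type p53, with an arginine-to-tryptophan mutant that is defective in DNA binding (RW mutant p53), or with a p53 sequence holding the DNA lesion O6-methylguanine on its template strand (p53 O6-meG). In the group called p53 TM, for transcriptional mutagenesis, the lesion vector was combined with 10 µM O6-benzylguanine (O6-bzG), which blocks repair of the lesion, so that RNA polymerase can insert the wrong base and a mixture of wild type and mutant p53 is made. No other group received O6-bzG, so an effect of O6-bzG itself and an effect of the unrepaired lesion cannot be told apart in p53 TM. Both genes of a vector were driven by tetracycline-responsive promoters, GFP-positive cells were sorted 6 or 24 h after transfection, and each group had 3 libraries from separate biological samples, except p53 O6-meG and p53 TM at 6 h with 2 each. For 2 further libraries of replicate 2 at 6 h the labels contradict each other, and these were put in no group. Whether replicates of a number shared a culture or a day is not stated in the sources used here.

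Histones are the proteins around which DNA is wrapped, with H2A, H2B, H3 and H4 in the nucleosome core and H1 on the linker DNA. The replication-dependent genes lie in clusters, are transcribed mainly in S phase when new DNA has to be packaged, and make mRNAs that end in a conserved stem-loop in place of a poly(A) tail. The stem-loop is bound by SLBP, which is needed for processing and translation, and the mRNAs are rapidly degraded when DNA synthesis stops. Replacement genes such as H2AZ1 or H3-3B make polyadenylated mRNA throughout the cell cycle. The libraries were prepared from total RNA after removal of ribosomal RNA and primed with random hexamers, so mRNAs without a poly(A) tail could be counted. In many cells p53 restrains the cell cycle through CDKN1A (p21), an inhibitor of cyclin-dependent kinases.

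The stem-loop that defines the replication-dependent mRNAs was read from the transcript sequences. It lay within 20 bases of the end of a transcript in 60 of the 61 replication-dependent genes of the count table and in none of the 10 replacement genes. Of all 20020 coding genes, the histone genes themselves included, 73 (0.365%) had the motif in their last 60 bases. H2BC21 held it only inside a longer transcript, and so did the replacement gene H2AX. Below are the stem-loops of the genes that carry the main results, H2BC3, whose form is the most frequent (34 members), and H4C4, whose form is shared by 10 members, and those of H2AC11 and H2AC15, each the single member with its form. The 16 bases of the motif are in capitals and the flanks in lower case (RefSeq and GENCODE positions in GRCh38, chr6:26043232-26043247, minus strand, for H2BC3; chr6:26188715-26188730, minus strand, for H4C4; chr6:27133515-27133530, plus strand, for H2AC11; chr6:27837885-27837900, minus strand, for H2AC15).
H2BC3: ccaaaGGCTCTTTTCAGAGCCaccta
H4C4: ccaacGGCCCTTTTCAGGGCCaccta
H2AC11: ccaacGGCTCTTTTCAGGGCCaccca
H2AC15: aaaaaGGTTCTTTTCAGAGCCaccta

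Promoters were searched for 4 motifs in the 250 bases before the annotated start, on both strands and allowing overlaps, in the 56 replication-dependent genes with a RefSeq promoter entry. The TATA box (TATAA) was present in 51 of 56, against 22.5% of 27305 promoters of all genes, and the CCAAT box in 46 of 56, against 37.0%. The octamer ATTTGCAT, a binding sequence of the factor OCT1, was found in 23 of 56, against 2.03% of all promoters. It stood in 10 of 13 H2A and 13 of 17 H2B promoters and in no H1, H3 or H4 promoter. The H2A and H2B counts are not independent, because windows of genes transcribed in opposite directions can overlap. H2BC11 and H2AC11 start 248 bases apart, and the window of H2AC11 holds the octamer that lies before H2BC11. Thus 1 octamer can be counted for both genes. The sequence TTTGAA, the core of the cell cycle homology region found in many cell cycle genes, was present in 20 of 56, against 16.1%. A match describes the letters only. The 120 bases before the start are given for 3 genes that fell with wild type p53, 1 each of H2B, H4 and H3, and for H2BC21, whose call depended on how the replicate number was treated. Capitals mark matches to the 4 motifs on either strand (RefSeq, GRCh38.p14, all on the minus strand: chr6:26043714-26043833, chr6:26189113-26189232, chr6:26250636-26250755 and chr1:149886683-149886802).
H2BC3: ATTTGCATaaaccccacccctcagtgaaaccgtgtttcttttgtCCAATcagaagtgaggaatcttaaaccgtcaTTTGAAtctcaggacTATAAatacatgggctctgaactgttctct
H4C4: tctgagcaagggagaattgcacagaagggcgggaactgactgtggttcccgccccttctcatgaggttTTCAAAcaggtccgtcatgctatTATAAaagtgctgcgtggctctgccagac
H3C7: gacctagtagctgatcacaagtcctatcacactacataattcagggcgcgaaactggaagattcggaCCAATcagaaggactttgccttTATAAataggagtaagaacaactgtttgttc
H2BC21: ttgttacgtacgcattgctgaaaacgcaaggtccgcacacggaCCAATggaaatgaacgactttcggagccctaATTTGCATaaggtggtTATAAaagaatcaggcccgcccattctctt

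The libraries held 32302699 to 71950532 reads in genes (median 44424643), and replication-dependent histone mRNA took 0.159 to 0.685% of them. Levels are given as CPM, the reads of a gene scaled to one common library total, with TMM factors that equalise the bulk of the genes between libraries. Epithelial and mesenchymal line markers were high in every library (KRT8 111 to 181, KRT18 272 to 720 and VIM 1934 to 3579 CPM), the lung lineage marker NKX2-1 was at most 1.20 CPM and SFTPC at most 0.108, and markers of leukocytes, endothelium and fibroblasts were near 0 (PTPRC at most 0.050, PECAM1 at most 0.999 and COL1A1 at most 1.99 CPM). CDKN1A, the check on the vectors, was at 44.6 to 50.2 CPM in pGFP cells at 24 h, at 44.8 to 50.5 CPM with RW mutant p53, at 289 to 422 CPM with p53 TM, and at 513 to 788 CPM with wild type p53. In each of the 5 groups at 24 h, replicate 1 had the lowest summed level of replication-dependent histone mRNA. Over all genes, samples of the same number deviated together from their group means in 30 of 30 pairs at 24 h (correlation 0.291 to 0.764). Of 60 pairs with different numbers 14 correlated above 0.1, with a median of -0.39 and a highest value of 0.368. The correlations cover all replicate numbers and do not single out replicate 1. The main counts of called members at 24 h are therefore given also with the replicate number as a block within each time, and without all replicate 1 libraries at 24 h. Both fits were added after the data were seen. Most single-gene values, the pairs of neighbouring genes, and most splits by promoter or transcript are given in the main fit only. So are the lists of genes for histone mRNA and of chaperones.

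Replication-dependent histone mRNA was lower with wild type p53 than with pGFP at 24 h. The summed level of the 61 genes was 3194, 4603 and 4073 CPM in pGFP replicates 1 to 3 and 1528, 2910 and 2591 CPM with wild type p53. All wild type libraries were below all pGFP libraries, and within replicate numbers the wild type level was 0.478, 0.632 and 0.636 of the pGFP level. In bulk libraries, fewer cells with histone mRNA and less of it per cell cannot be told apart. Each of the 5 families was lower in every same-numbered pair. H3 fell the most, to 0.283, 0.528 and 0.499 of pGFP, and H1 the least in replicates 2 and 3, to 0.682 and 0.70, while its replicate 1 was at 0.524. The difference between the families was not tested.

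**Figure D1:**
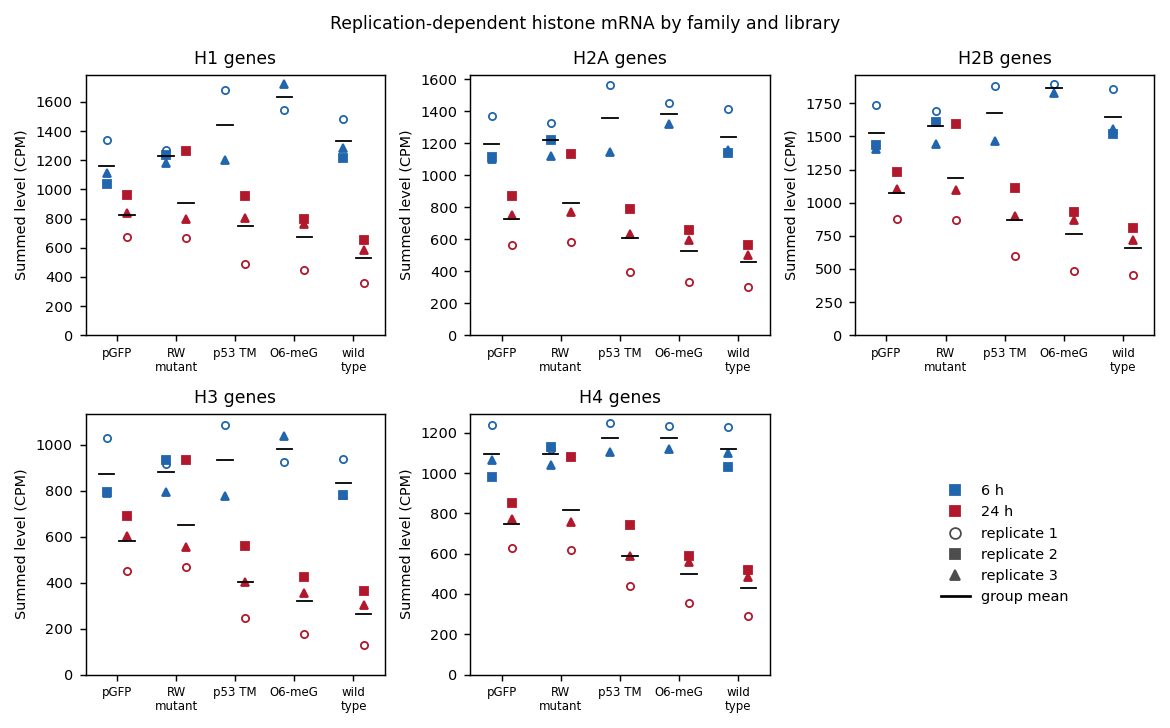
Summed level (CPM, linear axis from 0) of the replication-dependent genes of each family in every assigned library, by vector. Blue is 6 h and red 24 h, symbols give the replicate number and bars the group mean. At 24 h the H3 sum was 451 to 691 CPM with pGFP and 127 to 365 CPM with wild type p53, and replicate 1 was the lowest of each 24 h group.

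Gene by gene, 32 of the 52 tested replication-dependent genes fell and none rose with wild type p53 at 24 h (edgeR quasi-likelihood test, Benjamini-Hochberg adjusted P under 0.05 over all 21335 genes, here "called"). Over all genes, 14.5% were called lower and 20.5% higher. The median log2 fold change of the 52 genes was -0.76, against 0.01 over all genes. Of the 32, 14 fell at least 2-fold, against 1.99% of all genes. Without a test, 48 of the 52 were lower in wild type than in pGFP in all 3 same-numbered pairs, as were 31.7% of all genes. The exceptions were H1-1, H2BC26, H3C6 and H4C14. The number of calls depended on how the replicate numbers were treated. It was 36 of 52 with the replicate number as a block (16.8% of all genes lower), 47 of 52 with the block within each time (21.6%) and 41 of 51 without the replicate 1 libraries at 24 h (13.9%). Leaving out only wild type replicate 1 or only pGFP replicate 2 brought the calls among all 64 members from 34 lower to 17 lower.

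H2BC3, an H2B gene at chr6:26043227-26043713 (GRCh38, minus strand), had the largest change. It was at 1.65, 1.54 and 1.24 CPM with pGFP and at 0.325, 0.602 and 0.427 CPM with wild type p53 at 24 h. The groups did not overlap, although the wild type level rested on 13, 28 and 18 reads per library. The log2 fold change was -1.69 ± 0.25 (SE, n = 3 and 3, edgeR adjusted P = 6.2e-06). H4C4, an H4 gene at chr6:26188710-26189112, was at 44.2, 47.5 and 50.6 CPM with pGFP and at 12.6, 23.1 and 21.0 CPM with wild type p53, a log2 fold change of -1.32 ± 0.21 (edgeR adjusted P = 2.1e-05). It is overlapped on the other strand by unnamed genes of the current annotation, and whether counting took strand into account is not given in the sources used here, although the library kit keeps it. H4C1 went from 13.9, 20 and 18 CPM to 3.77, 9.66 and 8.82 CPM, with no overlap (log2 fold change -1.22 ± 0.27, edgeR adjusted P = 0.00069).

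Of the 7 tested H3 genes, which supply the H3 of new nucleosomes, 5 fell. H3C1 was at 3.98, 4.44 and 4.43 CPM with pGFP and at 0.824, 2.30 and 1.64 CPM with wild type p53 (log2 fold change -1.42 ± 0.32). H3C7, the H3 gene with the highest level per kilobase over all libraries (404 CPM per kilobase), was at 137, 213 and 176 CPM and at 36.1, 111 and 88.0 CPM (log2 fold change -1.16 ± 0.33, edgeR adjusted P = 0.0077). Its groups did not overlap. H3C12 (-1.45 ± 0.34) and H3C10 (-1.16 ± 0.29) fell likewise, while H3C8 was just short of 2-fold at -0.99 ± 0.35. For H3C12, 34.7% of the 75-base stretches of its transcripts are shared with another gene, so its reads may be split or lost. H3C13 was at -0.44 ± 0.39 (edgeR adjusted P = 0.43). H3C6 had no more than 0.375 CPM in any library.

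Among the H4 genes 9 of 11 fell, with a median log2 fold change of -0.81, from H4C4 to H4C16. H4C16 is the H4 gene on chromosome 12 and went from 83.8, 98.5 and 92.0 CPM to 51.7, 68.6 and 71.1 CPM (log2 fold change -0.52 ± 0.15). H4C3, with the highest level per kilobase of the family (535 CPM per kilobase), fell from 143, 188 and 169 CPM to 75.8, 128 and 116 CPM (log2 fold change -0.64 ± 0.20). H4C11 and H4C14 were not called, and H4C14 had at most 14 reads in any library. These and H4C12, which fell (-0.92 ± 0.28), share 91.4, 96.2 and 92.0% of their 75-base stretches with another gene.

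Of the 17 H2B genes 10 fell (median -0.70) and of the 12 H2A genes 6 (median -0.67). The next largest H2B change was that of H2BC14, from 10.9, 14.1 and 14.2 CPM to 2.55, 6.80 and 6.66 CPM (log2 fold change -1.29 ± 0.30). H2BC8, the highest H2B gene per kilobase (370 CPM per kilobase), fell by 0.61 ± 0.21 on the log2 scale. In the H2A family H2AC4 went from 25.9, 38.4 and 35.2 CPM to 6.47, 17.3 and 16.0 CPM (log2 fold change -1.32 ± 0.34), and H2AC8 and H2AC12 also fell at least 2-fold. H2AC11, which had the highest level per kilobase of all members (546 CPM per kilobase), was at 156, 236 and 209 CPM with pGFP and 110, 177 and 149 CPM with wild type p53. These groups overlapped and the gene was not called (log2 fold change -0.46 ± 0.24), although it was lower in each same-numbered pair and was called with the block within each time (-0.47 ± 0.07).

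Of the 5 linker genes, H1-5 (188, 276 and 234 CPM against 58.5, 144 and 130 CPM, log2 fold change -1.07 ± 0.32) and H1-3 (-1.05 ± 0.36) fell at least 2-fold. H1-2, the most abundant per kilobase (501 CPM per kilobase), was at 231, 338 and 285 CPM with pGFP and at 127, 237 and 204 CPM with wild type p53, with overlap, and did not pass the test (-0.59 ± 0.26, edgeR adjusted P = 0.077). It was lower in each same-numbered pair and passed with the replicate block (-0.60 ± 0.22, edgeR adjusted P = 0.032), with the block within each time (-0.62 ± 0.10) and without replicate 1 at 24 h (-0.53 ± 0.18, edgeR adjusted P = 0.024). H1-1 and H1-4 did not pass it either.

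**Figure D2:**
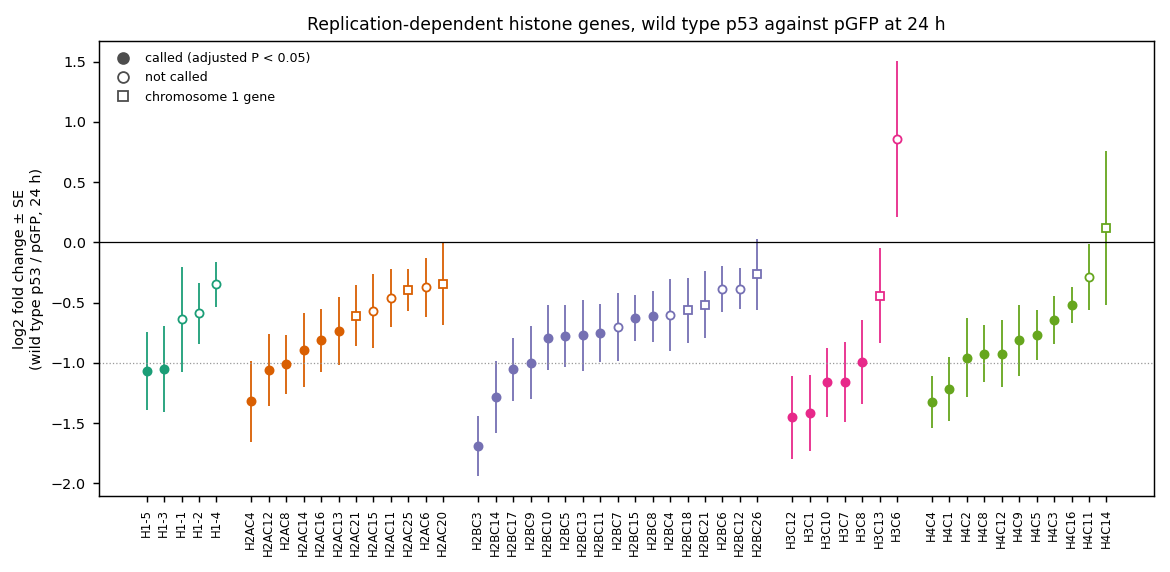
Log2 fold change (± SE) of each of the 52 tested replication-dependent genes, wild type p53 against pGFP at 24 h, ordered within families. Filled points were called at an adjusted P under 0.05, squares are genes on chromosome 1, and the dotted line marks a 2-fold decrease. The values run from -1.69 for H2BC3 to 0.86 for H3C6, and no gene on chromosome 1 was called in this fit.

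Calls were also counted by position, transcript type and promoter motif, in splits that were made with the values known and carry no test. On chromosome 6, which holds the main cluster, 31 of 43 tested genes fell (median log2 fold change -0.81), while on chromosome 1 0 of 8 were called (median -0.42), 3 of them at an unadjusted P under 0.05. This contrast depended on the replicate number. With the replicate block 33 of 43 and 2 of 8 were called, with the block within each time 40 of 43 and 6 of 8, and without replicate 1 at 24 h 36 of 42 and 4 of 8. The median on chromosome 1 was -0.43 in each of these fits. Of the 36 genes whose annotated transcripts all end at the stem-loop 25 fell (median -0.81), and of the 16 that also have another annotated end 7 fell (median -0.54). Of the 30 genes with no 75-base stretch shared with another gene 22 fell, and of the 22 with some shared sequence 10. Genes with an octamer fell in 11 of 21 cases and those without in 17 of 27. With TTTGAA the count was 12 of 19 and without it 16 of 29. CCAAT was present in 40 genes, 22 of which fell, and absent in 8, 6 of which fell. Of the 44 genes with the exact letters TATAA 28 were called, and of the 4 without them 0. Of these 4, H1-2 and H2AC25 were called lower in each of the fits with a block or without replicate 1. H2AC25, H2BC26 and H4C14 lie on chromosome 1, so this split is not separate from that by chromosome.

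Many H2A and H2B genes share a promoter region with a partner that is transcribed in the opposite direction. By the outermost annotated starts, 11 pairs of tested replication-dependent genes in this orientation had starts at most 1000 bases apart. H3C12 with H2BC17 and H3C7 with H2BC9 pair an H3 with an H2B gene. In 5 pairs both genes fell, among them H2BC8 (-0.61) and H2AC8 (-1.01), 233 bases apart, and H2AC14 (-0.90) and H2BC14 (-1.29), 245 bases apart. Another was H3C12 (-1.45) and H2BC17 (-1.05), 319 bases apart. The H3C12 start used there lies within H2AC17, a gene on the same strand, and whether H3C12 and H2BC17 share a promoter was not tested. In 3 pairs only 1 partner was called. The widest gap was between H2BC12 (-0.38 ± 0.17, not called) and H2AC12 (-1.06 ± 0.30), whose starts are 251 bases apart. The difference between partners was not tested.

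Most replacement genes were not called with wild type p53 at 24 h. Their summed level was 0.848, 0.853 and 0.945 of pGFP in the 3 same-numbered pairs. H2AX, the variant phosphorylated at DNA breaks, was at 137, 178 and 179 CPM and at 94.4, 115 and 143 CPM. The ranges overlapped, each same-numbered pair was lower, and the gene was called (-0.49 ± 0.16, edgeR adjusted P = 0.018). The H2A.Z genes H2AZ1 (-0.24 ± 0.10, edgeR adjusted P = 0.082) and H2AZ2 (-0.03 ± 0.10), the H3.3 genes H3-3A (-0.06 ± 0.17) and H3-3B (-0.16 ± 0.09), H2AJ (0.03 ± 0.08), MACROH2A1 (-0.02 ± 0.06) and the linker gene H1-10 (-0.28 ± 0.15) were not called. With the block within each time H2AZ1, H3-3B and H1-10 also passed the test, all lower.

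MACROH2A2, which encodes a large H2A variant linked to silent chromatin, was the only member that rose. It was at 9.0, 8.17 and 7.23 CPM with pGFP and at 24.6, 18.8 and 13.8 CPM with wild type p53, and every wild type library was above every pGFP library. The log2 fold change was 1.23 ± 0.18 (edgeR adjusted P = 7.3e-06). Of its 14988 exonic bases, 986 are shared with exons of AIFM2, which lies on the other strand. AIFM2 moved the same way, from 25.6, 25.8 and 25.9 CPM to 60.3, 57.1 and 48.9 CPM (log2 fold change 1.10 ± 0.12). Without knowledge of how strand was treated, reads from the shared bases cannot be told apart, and their part in the result was not tested.

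The lesion vector without O6-bzG gave fewer calls in the same direction. With p53 O6-meG at 24 h, 13 of 52 replication-dependent genes were called lower and none higher, against 11.3% of all genes lower and 18.1% higher, with a median log2 fold change of -0.49. At least 2-fold decreases were seen in 5 genes, against 1.8% of all genes, namely H2BC3 (-1.69 ± 0.25), H3C12 (-1.25), H3C1 (-1.11), H2AC4 (-1.06) and H2BC14 (-1.05). With wild type p53, in a comparison that uses the same pGFP libraries, these genes were at -1.69, -1.45, -1.42, -1.32 and -1.29. The summed level of the replication-dependent genes was 1805, 3401 and 3141 CPM, or 0.565, 0.739 and 0.771 of pGFP. In all 3 same-numbered pairs 45 of 52 genes were lower, against 29.9% of all genes. The calls rose to 21 of 52 with the replicate block (13.4% of all genes lower), to 45 of 52 with the block within each time (18.4%) and to 28 of 51 without the replicate 1 libraries at 24 h (10.9%). Leaving out p53 O6-meG replicate 1 or pGFP replicate 2 brought the 15 members called lower to 5 and 7, and leaving out wild type replicate 1 raised them to 26. H2AX fell (-0.50 ± 0.16), and MACROH2A2 rose to 22.5, 16.9 and 13.6 CPM (1.12 ± 0.18).

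A direct comparison of p53 O6-meG with wild type p53 at 24 h called no member, by edgeR or DESeq2, and 0 of 64 had an unadjusted P under 0.05. Over all genes 0.00937% were called and 4.96% were under that P. The summed replication-dependent level was nevertheless 1.18, 1.17 and 1.21 times that of wild type p53 in the 3 same-numbered pairs, and the median log2 difference over 52 genes was 0.23.

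p53 TM lay between pGFP and wild type p53. At 24 h the summed replication-dependent level with p53 TM was 2175, 4157 and 3329 CPM, or 0.681, 0.903 and 0.817 of pGFP, and within every replicate number the order was pGFP, p53 TM, p53 O6-meG and wild type p53, from high to low. The ranges of neighbouring groups overlapped. Against pGFP no replication-dependent gene was called with p53 TM (median log2 fold change -0.31), and 5 of 52 had an unadjusted P under 0.05, while DESeq2 called 1 member lower. Over all genes 1.68% were called lower, 9.0% higher, and 21.3% had an unadjusted P under 0.05. In all 3 same-numbered pairs 39 of 52 genes were lower, against 21.9% of all genes. With the replicate block 2 of 52 were called lower (2.61% of all genes), with the block within each time 33 of 52 (6.64%), and without replicate 1 at 24 h 3 of 51 (2.33%). The count of calls thus ran from 0 to 33 with the treatment of the replicate number. MACROH2A2 was the only member called, at 16.2, 11.3 and 10.5 CPM, all above pGFP (log2 fold change 0.64 ± 0.18, edgeR adjusted P = 0.024). It was not called without the replicate 1 libraries (0.45 ± 0.15, edgeR adjusted P = 0.075). It was not called either without pGFP replicate 2, pGFP replicate 3 or p53 TM replicate 1, or with only the groups compared in the fit (0.59 ± 0.17, edgeR adjusted P = 0.088), where H4C4 was the member called (-0.65 ± 0.13).

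**Figure D3:**
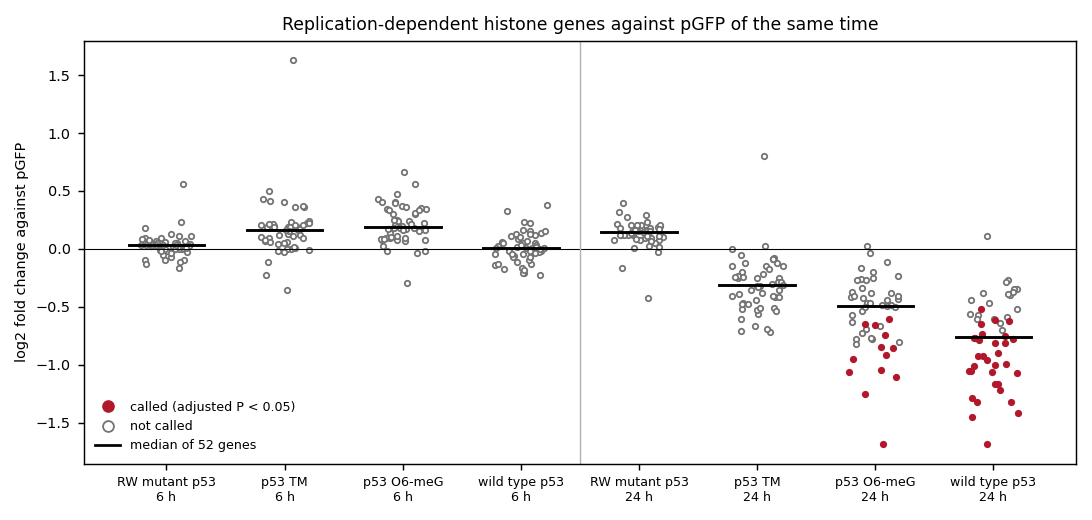
Log2 fold change against pGFP of the same time for the tested replication-dependent genes, by vector and time, with the point of H3C6 not drawn. Red points were called at an adjusted P under 0.05 and bars are medians. At 24 h the medians were 0.15 with RW mutant p53, -0.31 with p53 TM, -0.49 with p53 O6-meG and -0.76 with wild type p53, and all 8 comparisons use the pGFP libraries of their time.

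The difference between p53 TM and wild type p53 was tested directly. At 24 h H2BC3 and H4C4 were higher with p53 TM, and the other replication-dependent genes were not called. Over all genes 9.29% were called higher and 11.9% lower. H2BC3 was at 1.03, 1.06 and 1.09 CPM with p53 TM, above all wild type libraries and below all pGFP libraries (log2 difference from wild type 1.22 ± 0.25, edgeR adjusted P = 0.0012). H4C4 was at 25.2, 36.6 and 31.7 CPM with p53 TM, also apart from both (0.72 ± 0.21, edgeR adjusted P = 0.017). For MACROH2A2 the difference was -0.59 ± 0.18 (edgeR adjusted P = 0.020), with overlapping ranges. The summed replication-dependent level was 1.42, 1.43 and 1.28 times that of wild type p53, 47 of 52 genes were higher in all 3 same-numbered pairs (29.0% of all genes), and the median log2 difference was 0.43. With the replicate block 6 of 52 were called higher (11.4% of all genes), with the block within each time 40 of 52 (16.8%), and without the replicate 1 libraries 22 of 51 (8.48%). Leaving out p53 TM replicate 1 alone gave 21 members higher and leaving out wild type replicate 2 gave 6, while without wild type replicate 1 or without p53 TM replicate 2 only 2 members were called, both higher.

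RW mutant p53 left no member called. At 24 h its summed replication-dependent level was 3205, 5997 and 3984 CPM, or 1.00, 1.30 and 0.978 of pGFP, with a median log2 fold change of 0.15. edgeR and DESeq2 called 0 of 64 members, and 0 had an unadjusted P under 0.05, against 0.00469% called and 0.975% under that P over all genes. At 6 h the counts were again 0 called by both tools and 0 at an unadjusted P under 0.05, against 0.00469% and 1.02% of all genes, with a median of 0.03 for the replication-dependent genes. H2BC3 was at 1.55, 1.53 and 1.38 CPM and H4C4 at 43.5, 61.4 and 39.9 CPM at 24 h, ranges that overlap those of pGFP.

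At 6 h the histone genes did not follow CDKN1A. CDKN1A was already at 242 to 262 CPM with wild type p53, against 34.1 to 43.6 CPM with pGFP. The summed replication-dependent level was 6719, 5359 and 5473 CPM with pGFP and 6934, 5689 and 5884 CPM with wild type p53, and the ranges overlapped. In the fit of all groups no member was called by edgeR or DESeq2 and 0 had an unadjusted P under 0.05, while 10.3% of all genes were called and 19.4% were under that P. The median log2 fold change of the replication-dependent genes was 0.01. With p53 O6-meG (7050 and 7033 CPM) edgeR called no member in the fit of all groups and 6, all higher, with only the groups compared, DESeq2 called 1, higher, and 1 of 64 had an unadjusted P under 0.05, against 4.85% and 17.1% of all genes, with a median of 0.19. Both libraries were above the 3 of pGFP. p53 O6-meG and wild type p53 differed in no member by either tool, with 0 members at an unadjusted P under 0.05, against 0.0% and 9.99% of all genes.

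With p53 TM at 6 h (7462 and 5698 CPM) neither edgeR nor DESeq2 called a replication-dependent gene, against pGFP or against wild type p53, where 0.192% and 2.77% of all genes were called higher. By edgeR 1 of the 52 genes had an unadjusted P under 0.05 against pGFP and 2 against wild type p53, all of them higher, as against 5.98% and 21.3% of all genes in either direction. The p53 TM range overlapped that of pGFP, and the median log2 difference of the 52 genes was 0.17 from pGFP and 0.15 from wild type p53.

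**Figure D4:**
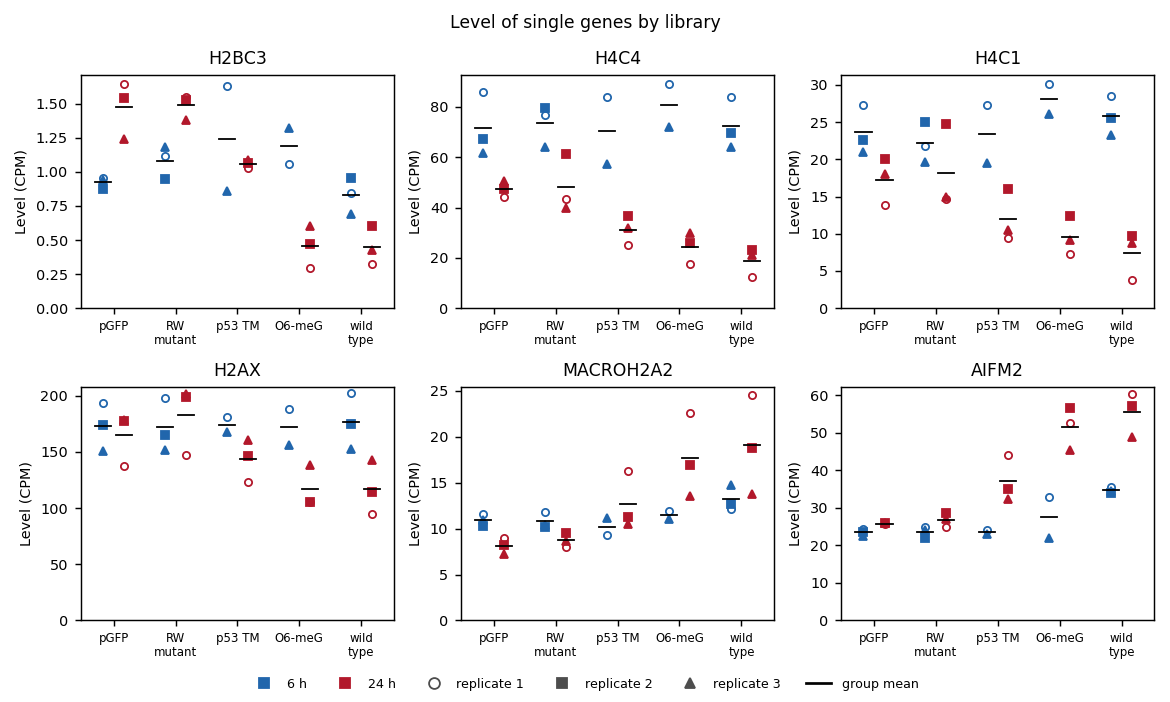
Level (CPM, linear axis from 0) of H2BC3, H4C4, H4C1, H2AX, MACROH2A2 and its overlapping neighbour AIFM2 in every assigned library, by vector. Blue is 6 h and red 24 h, symbols give the replicate number and bars the group mean. At 24 h H2BC3 with p53 TM (1.03 to 1.09 CPM) lies between wild type p53 (0.325 to 0.602) and pGFP (1.24 to 1.65).

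Time after transfection was examined without p53. In pGFP cells 15 of 52 replication-dependent genes were lower at 24 h than at 6 h and 2 were higher (median log2 change -0.54), against 22.3% of all genes lower and 19.0% higher. The largest decreases were those of H4C11, from 11.1, 7.95 and 9.77 CPM to 3.40, 4.03 and 3.19 CPM (-1.44 ± 0.26), of H3C13 (-1.21 ± 0.38) and of H4C12 (-1.07 ± 0.26). These 3 share 91.4, 62.8 and 92.0% of their 75-base stretches with another gene. H4C3, without shared stretches, fell from 325, 252 and 275 CPM to 143, 188 and 169 CPM (-0.77 ± 0.20). H2BC3 went the other way, from 0.952, 0.874 and 0.941 CPM to 1.65, 1.54 and 1.24 CPM with no overlap (0.67 ± 0.23, edgeR adjusted P = 0.020). The second gene called higher, H3C6, had at most 8 reads in a pGFP library. With the replicate block 25 of 52 were called lower (24.5% of all genes), and without replicate 1 at 24 h 24 of 51 (21.8%). Leaving out pGFP replicate 1 at 24 h or at 6 h brought the 19 members called lower to 7 and 8. H1-10 (0.56 ± 0.15) and H2AJ (0.21 ± 0.08) rose, while H2AZ1 (-0.41 ± 0.10), H2AZ2 (-0.34 ± 0.10), H3-3B (-0.35 ± 0.09) and MACROH2A1 (-0.19 ± 0.06) fell.

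Whether the effect of wild type p53 differed between the times was tested with the interaction term. It was called in the negative direction for H2BC3 (-1.52 ± 0.34, edgeR adjusted P = 0.0079), H4C4 (-1.34 ± 0.30, edgeR adjusted P = 0.0067) and H4C1 (-1.34 ± 0.36, edgeR adjusted P = 0.025). It was called in the positive direction for MACROH2A2 (0.95 ± 0.26, edgeR adjusted P = 0.025). In the fit of all groups none of these genes was called with wild type p53 at 6 h. Over all genes 2.77% were called in the negative and 3.73% in the positive direction. The median interaction of the 52 replication-dependent genes was -0.77, and 31 of them had an unadjusted P under 0.05, against 18.5% of all genes. With the replicate block 14 of 52 were called in the negative direction (4.13% of all genes), and with the block within each time 43 of 52 (8.64%). Without wild type replicate 1 of either time 2 members were called, and without p53 O6-meG replicate 1 or wild type replicate 2 at 24 h 9.

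The genes that make, process and degrade histone mRNA were taken from a fixed list of 25, of which 24 were tested. With wild type p53 at 24 h 4 fell (NPAT, CASP8AP2, POU2F1 and NCBP1), 4 rose (UPF1, TUT7, CPSF2 and CRAMP1), and the median log2 fold change was -0.10. These shares are near those of all genes (14.5% lower and 20.5% higher). NPAT, the coactivator of histone gene transcription that CDK2 phosphorylates, was at 52.4, 51.4 and 46.3 CPM with pGFP and at 33.4, 34.5 and 33.4 CPM with wild type p53, with no overlap (log2 fold change -0.57 ± 0.08, edgeR adjusted P = 1.9e-06). With p53 TM NPAT was at 50.8, 50.1 and 45.7 CPM and was higher than with wild type p53 (0.53 ± 0.08, edgeR adjusted P = 3.0e-05). CASP8AP2, a partner of NPAT in histone locus bodies, fell by 0.34 ± 0.09 on the log2 scale. SLBP was not called (97.2, 117 and 111 CPM against 93.6, 101 and 104 CPM, log2 fold change -0.12 ± 0.10, edgeR adjusted P = 0.40). UPF1, a helicase needed for the decay of histone mRNA and of other mRNAs, rose from 226, 207 and 231 CPM to 441, 390 and 357 CPM (0.84 ± 0.08), and was already higher at 6 h (0.44 ± 0.08). p53 O6-meG gave 5 higher and 2 lower (CASP8AP2 and NPAT), against 18.1% and 11.3% of all genes, and p53 TM 2 higher (CRAMP1 and UPF1) and none lower, against 9.0% and 1.68%. In pGFP cells 11 were lower at 24 h than at 6 h and 3 higher, against 22.3% and 19.0% of all genes, with SLBP among the lower (-0.77 ± 0.10).

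Of 26 listed histone chaperones and loading factors, all tested, 11 fell and 4 rose with wild type p53 at 24 h (median log2 fold change -0.12), against 14.5% of all genes lower and 20.5% higher. ASF1B, a chaperone of H3 and H4 in dividing cells, went from 79.3, 75.5 and 82.7 CPM to 40.7, 41.4 and 49.8 CPM (-0.85 ± 0.10, edgeR adjusted P = 9.3e-08) and stood at 59.5, 69.6 and 75.3 CPM with p53 TM, higher than with wild type p53 (0.63 ± 0.10). Of the CAF-1 subunits that load new H3 and H4 at replication forks, CHAF1A fell (-0.50 ± 0.08) and CHAF1B did not pass the test (-0.07 ± 0.07, edgeR adjusted P = 0.43). HJURP (-0.79 ± 0.21), which loads the centromeric H3 variant, and CENPA (-0.51 ± 0.19), the variant itself, both fell. The 4 that rose were HIRA, ATRX, NAP1L4 and SSRP1, while DAXX was among the 11 that fell. With p53 O6-meG 9 fell and 3 rose (11.3% and 18.1% of all genes), and with p53 TM 3 fell (DAXX, TONSL and CHAF1A) and 1 rose (1.68% and 9.0%). In pGFP cells 14 were lower at 24 h than at 6 h and 2 higher (22.3% and 19.0%). With wild type p53 at 6 h 1 of the 26 rose (NAP1L4) and none fell, where 10.3% of all genes were called.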

How the data were processed

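RNA-seq libraries from sorted H1299 cells were aligned by the authors to hg38 with STAR 2.5.3a and counted per GENCODE gene with featureCounts (Subread 1.5.2). The deposited values are raw counts, and all 30 columns were matched to samples by name. The settings for strand and for reads that match several genes are not given in the sources used here. The authors used DESeq2 1.20. Members were found through gene identifiers in GENCODE 44 (38904 of 39359 matched). The members and gene lists were chosen with earlier results of these data known.

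Counts were fitted with edgeR 4.0.16 (R 4.3.3): filterByExpr, TMM, 1 quasi-likelihood fit over 28 libraries in 10 groups, and Benjamini-Hochberg adjustment over 21335 genes. The test was checked on simulated counts with the same spread for every gene and no deviation shared by replicate number. That check does not cover the shared deviations seen at 24 h. P-values measure the spread between libraries of 1 cell line. The SE of an edgeR log2 fold change was derived from its size and its F statistic. It thus rests on the spread estimated over all groups of a fit, not only on the libraries compared. Alternatives were 10 other settings, DESeq2 1.42.0 among them, and each library left out in turn. Shares of all genes called are those of the main edgeR fit unless another setting is named with them. Named genes were the replacement variants, the highest gene per kilobase in each family, the 5 of smallest P per direction in 4 comparisons, all members changed at least 2-fold, NPAT, CASP8AP2, SLBP, ASF1B, CHAF1A, CHAF1B, HJURP, CENPA and CDKN1A. Other genes named were chosen after their values were seen. Libraries of the same number and time were checked for shared deviations: at 24 h all 30 pairs correlated above 0.1, and at 6 h 6 of 9 (0.031 to 0.413). None of the 26 pairs of libraries within a group agreed within sampling noise. Stem-loops, shared 75-base stretches and exon overlaps were read from GENCODE 44 transcripts and promoters from RefSeq (GRCh38.p14). The results of 1 replacement gene are not reported here, and it stays in the counts and sums over members.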

Additional observations from a re-analysis of the deposited data

Results flagged for a closer look

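The effect of wild type p53 differed between 6 and 24 h for 4 members by the interaction term (edgeR, adjusted P under 0.05): H2BC3 (-1.52 on the log2 scale), H4C4 (-1.34), H4C1 (-1.34) and MACROH2A2 (0.95). The first 3 were lower than in pGFP cells at 24 h and not called at 6 h, and MACROH2A2 was higher at 24 h. Groups of 3 libraries are too small for a search for single outlying libraries.

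The 2 libraries whose labels contradict each other entered no group. The library whose genotype field gives p53 O6-meG had CDKN1A at 50.1 CPM, and the library whose genotype field gives p53 TM had it at 250 CPM. In assigned libraries of 6 h CDKN1A was at 34.1 to 43.6 CPM with pGFP, 65.8 and 57.9 CPM with p53 TM, and 269 and 261 CPM with p53 O6-meG. Each of the 2 libraries was thus closer to the group at the start of its title than to that of its genotype field, and they were not assigned from these values.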

How the results depend on the processing

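Counts below are of the 64 members called in either direction. The share of all genes called moved with the setting too. For the interaction 2.77% were called in the negative direction in the main fit and 8.64% with the block within each time. Shares for some fits stand with the results above, and none are given for single libraries dropped. A shift in the counts below is therefore not by itself particular to histone genes. Against pGFP at 24 h, wild type p53 gave 35, and 53 with a replicate block within each time. For p53 O6-meG the count of 16 became 31 with no filter on low counts, 25 with the replicate block, 51 with the block within each time and 32 without the replicate 1 libraries at 24 h. For p53 TM the count of 1 became 2 with DESeq2 size factors, with DESeq2, with no filter, with at least 10 counts in every library and with the unassigned libraries placed by title, 3 with the replicate block and without replicate 1 at 24 h, and 35 with the block within each time. For p53 TM against wild type p53 at 24 h the count of 4 became 8 with no filter and with the replicate block, 2 with only the groups compared, 44 with the block within each time and 24 without replicate 1. At 6 h wild type p53 gave 1 with only the groups compared and 2 with the block within each time, in place of 0. p53 O6-meG at 6 h gave 1 with DESeq2, with no filter and with the replicate block, 6 with only the groups compared and 12 with the block within each time, in place of 0. p53 TM at 6 h gave 0 with the unassigned libraries placed by either label and 4 with the block within each time, in place of 1. p53 TM against wild type p53 at 6 h gave 2 with DESeq2 or placement by title, 0 with placement by genotype, 4 with only the groups compared and 12 with the block within each time, in place of 1. The time comparison in pGFP cells went from 24 to 42 with only the groups compared and 52 with the block within each time. That block removes the deviations shared by libraries of the same number and time. For a comparison between times these are part of the error, so the 52 is not a fair alternative to the 24. The interaction went from 4 to 7 with DESeq2, 16 with no filter or the replicate block, 17 with only the groups compared, 47 with the block within each time and 29 without replicate 1. The cause of these shifts was not tested. No named gene changed the sign of a called value, but the direction of calls differed between settings. For p53 TM at 24 h the single call was higher, and was lower with only the groups compared (0 higher, 1 lower), with 0 higher and 3 lower without replicate 1 and 1 higher and 34 lower with the block within each time. For p53 TM against wild type p53 at 6 h the block within each time gave 9 higher and 3 lower.

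When single libraries were dropped, counts at 24 h ran from 18 to 38 for wild type p53, 6 to 27 for p53 O6-meG, 0 to 2 for p53 TM and 2 to 22 for p53 TM against wild type p53. They ran from 0 to 1 for p53 O6-meG and for p53 TM at 6 h, 1 to 3 for p53 TM against wild type p53 at 6 h, 9 to 30 for time and 2 to 9 for the interaction. RW mutant p53 at both times, wild type p53 at 6 h, and p53 O6-meG against wild type p53 at both times stayed at 0. For single named genes, 77 calls were lost and 34 gained with a library left out, and 3473 entries of gene and comparison stayed the same. Under the other settings 14 calls were lost and 84 gained, and 1139 entries stayed the same. The entries that stayed the same include genes called in neither fit, so they do not count calls kept. Depth limits the genes at a few CPM, such as H2BC3, and near-identical genes may have lost reads.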

Other observations

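In the 2 libraries of 6 h with contradictory labels, the summed level of the replication-dependent genes was 5742 CPM where the genotype field gives p53 O6-meG and 5822 CPM where it gives p53 TM. The pGFP libraries of 6 h were at 5359 to 6719 CPM.

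H2BC6 was called lower with p53 O6-meG at 24 h (-0.65 ± 0.19, edgeR adjusted P = 0.012) and not with wild type p53 (-0.39 ± 0.19, edgeR adjusted P = 0.12), at 1.00 to 2.36 CPM in these groups. The difference between the vectors was not called.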
